A study of Mus musculus with 30 samples.

Results

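The expression of 10 Toll-like receptor genes, Tlr1 to Tlr9 and Tlr13, was followed in 30 RNA sequencing libraries of bone marrow-derived dendritic cells (BMDCs). These genes were chosen by name, as the rows of the count table whose Ensembl identifiers belong to them, and all 10 were found among 43629 genes. Toll-like receptors are membrane proteins that bind molecules of microbes or of damaged cells and pass the signal on through adaptor proteins such as MYD88 and TRIF. TLR1, TLR2, TLR4, TLR5 and TLR6 act mainly at the cell surface and recognise bacterial lipopeptides, lipopolysaccharide and flagellin, whereas TLR3, TLR7, TLR8, TLR9 and TLR13 act in endosomes and recognise RNA or DNA. Dendritic cells (DCs) use them to sense pathogens before they migrate and present antigen.

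The BMDCs were grown from bone marrow of C57BL/6J wild-type (WT) mice or of C57BL/6N Cacnb3-/- mice, which lack the calcium channel subunit CACNB3, so that the substrain differed together with the deletion. The donors were 6 to 12 weeks old and of both sexes, and the marrow was cultured with GM-CSF for 6 days. Each genotype had 5 numbered cultures, and each culture gave 3 libraries, distinguished by the ending of their names (ctrl, 0p5h and 24h). Per the protocol, cells received 500 µM ATP for a pulse of 30 min and were harvested at its end or 24 hours later. Names and treatment labels disagree for 2 of the 3 sets: the libraries named ctrl are labelled as having had ATP for 30 min, and those named 0p5h as vehicle, whereas for the libraries named 24h both sources give 24 hours after ATP. The sets are given here by library name. Under the treatment labels, every difference between 0p5h and ctrl would take the opposite sign, and 24h against 0p5h would be the comparison of ATP after 24 hours with vehicle. This disagreement does not touch the comparisons between WT and Cacnb3-/- libraries of 1 set.

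The counted reads of a library ranged from 8237393 to 32164225, and mitochondrial transcripts took 0.707% to 5.61% of them in WT libraries named 24h and 3.21% to 16.5% in Cacnb3-/- libraries named 24h. Fos, an immediate early gene, had a mean of 177 counts per 1000000 counted reads (CPM) in WT and 210 CPM in Cacnb3-/- libraries named 0p5h, against 18.9 and 28.8 CPM in those named ctrl. The level of Cacnb3 itself was 1035 to 2143 CPM in WT libraries, against 573 to 1331 CPM in those of the deletion, and the ranges overlapped, so reads counted over the whole gene, deleted part or not, did not check the deletion. DC markers were abundant in every library (lowest Itgax level 76.7 CPM, lowest Cd74 level 6001 CPM). Of the 5 plasmacytoid DC markers, Siglech (at most 0.176 CPM), Ccr9 (at most 0.547 CPM) and Ly6d (at most 1.06 CPM) were near 0, whereas Bst2 (253 to 842 CPM) and Tcf4 (29.2 to 97.1 CPM), which other cells also express, were not, and the 4 B cell markers summed to at most 5.05 CPM. Macrophage markers were also present, with a sum of 522 to 2117 CPM over 7 genes, as were granulocyte markers, with a sum of 130 to 689 CPM over 8 genes. In bulk RNA, fewer cells of a type and less RNA per cell cannot be told apart.

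The promoters of Tlr2, Tlr5, Tlr9 and Tlr3 are printed first. These genes are among those whose levels differed between sets or genotypes, and the part of the sequences in these differences was not tested. RefSeq held a promoter of 300 bases (250 before and 50 after the annotated start, GRCm38.p6) for 8 of the 10 genes, with 2 starts each for Tlr1 and Tlr6. Both strands of these 10 windows were searched for the NF-kB core GGANTTTCC, the ISRE core TTCNNTTTC, the CRE TGACGTCA, the AP-1 site TGANTCA and the PU.1 core GAGGAAGT, and 5 of the 10 windows held a match. No base belonged to matches of different motifs. Capitals mark a match. The windows lie at chr3:83841559-83841858 on the minus strand for Tlr2, chr1:182954538-182954837 on the plus strand for Tlr5, chr9:106222348-106222647 on the plus strand for Tlr9 and chr8:45410331-45410630 on the minus strand for Tlr3.
Tlr2: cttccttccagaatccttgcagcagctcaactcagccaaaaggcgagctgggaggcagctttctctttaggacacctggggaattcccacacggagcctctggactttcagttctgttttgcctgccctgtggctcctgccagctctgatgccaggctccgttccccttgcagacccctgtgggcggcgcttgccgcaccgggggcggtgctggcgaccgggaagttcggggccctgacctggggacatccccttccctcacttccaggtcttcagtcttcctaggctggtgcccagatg
Tlr5: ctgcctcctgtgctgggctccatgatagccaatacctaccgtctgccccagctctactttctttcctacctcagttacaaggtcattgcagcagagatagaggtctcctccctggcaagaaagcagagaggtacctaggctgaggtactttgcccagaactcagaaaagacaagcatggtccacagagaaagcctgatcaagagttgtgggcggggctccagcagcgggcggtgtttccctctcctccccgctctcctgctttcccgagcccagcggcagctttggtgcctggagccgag
Tlr9: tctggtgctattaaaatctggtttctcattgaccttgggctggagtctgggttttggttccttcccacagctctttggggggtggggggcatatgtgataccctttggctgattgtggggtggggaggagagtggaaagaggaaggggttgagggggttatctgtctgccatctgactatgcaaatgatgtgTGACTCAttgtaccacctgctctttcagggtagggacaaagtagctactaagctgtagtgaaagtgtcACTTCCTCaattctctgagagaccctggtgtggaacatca
Tlr3: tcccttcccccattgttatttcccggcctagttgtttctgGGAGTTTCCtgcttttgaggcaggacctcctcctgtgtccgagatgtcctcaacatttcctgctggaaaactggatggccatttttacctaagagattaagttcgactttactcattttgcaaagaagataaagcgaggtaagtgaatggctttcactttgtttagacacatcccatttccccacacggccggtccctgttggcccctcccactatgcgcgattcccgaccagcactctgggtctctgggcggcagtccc

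The Tlr9 window held an AP-1 site at -58 to -52 from the start and a PU.1 core on the other strand at 11 to 18, and the Tlr3 window held an NF-kB core at -210 to -202. The windows of Tlr2 and Tlr5 held none of these letters, which says nothing of the factors themselves. Over 32851 promoters of the same length, 7.81% held the AP-1 site, 3.2% the PU.1 core, 1.25% the NF-kB core, 8.56% the ISRE core and 1.79% the CRE. Among the other windows, 1 of the 2 Tlr6 starts held overlapping ISRE cores at -115 to -107 and -109 to -101, Tlr8 held 1 at -67 to -59, and 1 of the 2 Tlr1 starts held a PU.1 core at -23 to -16.

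Tlr1 and Tlr6 arose by duplication and lie side by side on chromosome 5 (chr5:64924811-64932761 and chr5:64953106-64960048, GRCm38, both on the minus strand). Stretches of their coding sequences are identical, and a read that falls inside one aligns equally well to both genes and is not counted under the default setting of the counting tool. The longest such stretch, given because it limits how these genes could be counted, spans 229 bases (positions 1468 to 1696 of 2388 coding bases in Tlr1 and 1507 to 1735 of 2421 in Tlr6).
Tlr1 and Tlr6: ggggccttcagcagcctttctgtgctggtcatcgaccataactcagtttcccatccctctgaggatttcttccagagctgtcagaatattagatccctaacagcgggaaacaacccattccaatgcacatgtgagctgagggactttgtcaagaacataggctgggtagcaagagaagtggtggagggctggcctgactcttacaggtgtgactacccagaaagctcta
Of all windows of 50 bases in the reference transcript, 15.1% in Tlr1 and 10.4% in Tlr6 also occurred in another gene, against 7.58% in Tlr7, 2.88% to 3.37% in Tlr3, Tlr4 and Tlr5, 0.261% in Tlr13 and 0% in Tlr2, Tlr8 and Tlr9. No exon base of the 10 genes overlapped another gene in the annotation.

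Tlr2 was the most abundant receptor gene, followed by Tlr13. Levels are compared between genes as RPKM, the CPM divided by the exon length in kilobases, since the genes differ in length from 2603 bases (Tlr6) to 5556 bases (Tlr4). In WT libraries named ctrl, Tlr2, the partner of TLR1 and TLR6 in lipopeptide recognition, reached 39.4 ± 11.3 RPKM (SD, n = 5), Tlr13, a sensor of bacterial ribosomal RNA, 15.3 ± 2.57, and Tlr9, a sensor of unmethylated CpG DNA, 7.08 ± 1.41. Each of the 3 stood above the next in all 5 libraries, without overlap. The next 5 genes, Tlr1 (2.75 ± 0.464), Tlr8 (2.64 ± 1.5), Tlr4 (2.54 ± 0.481), Tlr6 (2.19 ± 0.527) and Tlr7 (1.71 ± 0.712), overlapped their neighbours in this order. Tlr5, the flagellin receptor, at 1.08 ± 0.642 RPKM and Tlr3, the receptor of double-stranded RNA, at 0.455 ± 0.214 RPKM were the lowest, and their ranges overlapped. Tlr3 was counted with only 11 to 100 reads per library, and Tlr5 with 10 to 267, so that both carry much counting error, as does Tlr8 in Cacnb3-/- libraries named 24h, with as few as 9 reads. Tlr11 and Tlr12, the other mouse receptor genes, had group means of 0.1301 to 0.426 RPKM and 2.72 to 6.06 RPKM.

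**Figure D1:**
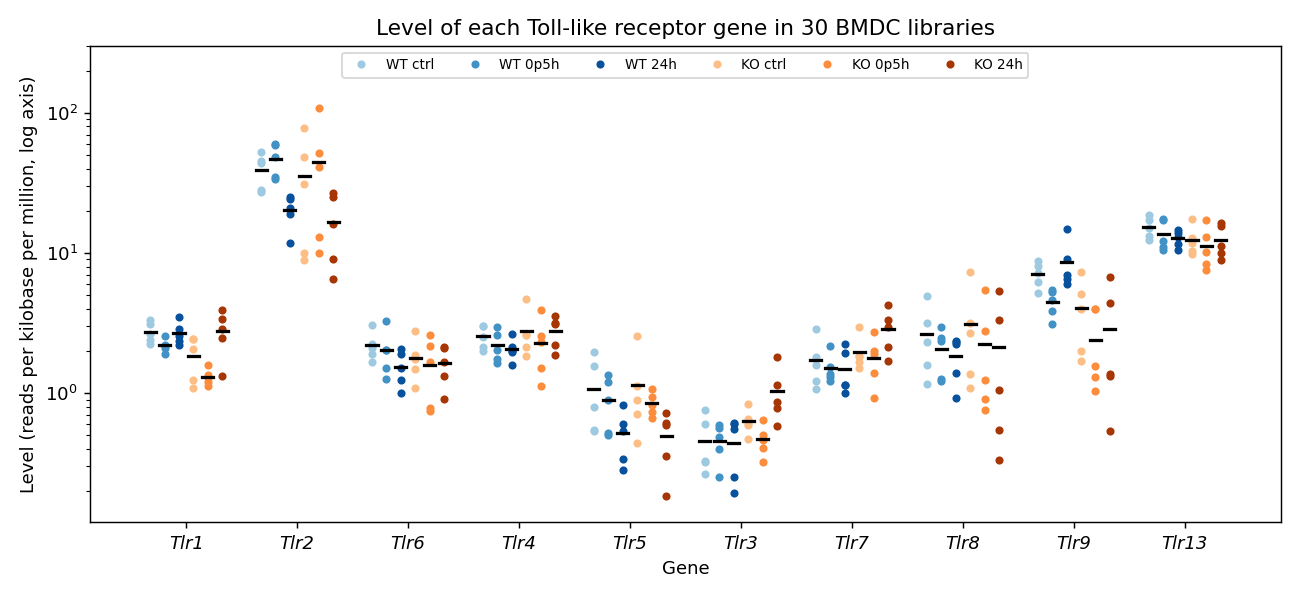
Level of the 10 Toll-like receptor genes in 30 BMDC libraries, in RPKM on a log axis. Each point is a library, colours give genotype and set (KO, Cacnb3-/-), and bars are group means of 5 libraries. Tlr2 reached 39.4 RPKM and Tlr13 15.3 RPKM on average in WT libraries named ctrl, while the group means of Tlr5 and Tlr3 were at most 1.15 RPKM.

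In Cacnb3-/- libraries named ctrl the order began likewise, with Tlr2 at 35.2 ± 28.9 RPKM and Tlr13 at 12.5 ± 2.98 RPKM, but their ranges overlapped because Tlr2 differed widely between cultures. Tlr9 had 4.04 ± 2.34 RPKM there and overlapped Tlr8 with 3.13 ± 2.51 RPKM. In libraries named 24h, Tlr2 and Tlr13 overlapped in both genotypes (20.2 ± 5.27 and 12.7 ± 1.62 RPKM in WT, 16.7 ± 9.17 and 12.4 ± 3.31 RPKM in Cacnb3-/- BMDCs). Tlr2 made up 51.7% ± 7.49 of the summed RPKM of the 10 genes in the WT set ctrl, 60.9% ± 7.11 at 0p5h and 38.3% ± 5.51 at 24h. The same shares in Cacnb3-/- libraries were 47.3% ± 15.8, 57.5% ± 14.9 and 34.6% ± 7.39. Tlr9 took 9.64%, 5.94% and 16.2% in WT and 6.21%, 3.98% and 5.59% in Cacnb3-/- libraries named ctrl, 0p5h and 24h.

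Within a genotype, the sets were compared by edgeR's quasi-likelihood test with Benjamini-Hochberg adjustment over all genes tested, where a call needed both an adjusted p under 0.05 and a difference of 2-fold or more. All 10 genes passed the filter on low counts in every comparison. Since libraries of one culture deviated together, the same test was also fitted with the culture as a replicate block, which compares the sets within cultures. The labels do not say whether a culture number marks 1 animal, so p-values measure the spread between these cultures.

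Tlr2, the receptor gene with the highest mean RPKM, was lower in the libraries named 24h than in those named 0p5h in every culture of both genotypes. In WT cultures p974s846, p974s850, p974s855, p974s856 and p974s864, taken in this order here and below, Tlr2 had 105, 176, 101, 182 and 147 CPM in libraries named 0p5h. The libraries named 24h had 56.9, 63.1, 72.9, 75.4 and 35.7 CPM. The groups did not overlap, and the log2 fold change was -1.22 (SE 0.228, 95% interval -1.72 to -0.72, adjusted p = 0.026). It was called without and with the replicate block (-1.22, adjusted p = 0.00445), and was the only one of the 10 genes called, where 0.639% of 12830 genes tested were called without and 1.78% with the block. Without the block, the call was lost when p974s846, p974s850, p974s856 or p974s864 was left out (adjusted p = 0.0901, 0.165, 0.099 and 0.0648) and when all 30 libraries shared one fit (adjusted p = 0.425).

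The Cacnb3-/- cultures are taken here and below in the order p974s843, p974s851, p974s852, p974s853, p974s865. Tlr2 had 123, 157, 30.3, 39.0 and 328 CPM in libraries named 0p5h and 48.3, 80.9, 19.7, 27.3 and 75.9 CPM in libraries named 24h. All 5 cultures were lower at 24h, but the groups overlapped, since p974s852 and p974s853 were low and p974s865 was high throughout. The difference was not called without the block (log2 fold change -1.41, SE 0.604, adjusted p = 0.265) and was called with it (-1.12, SE 0.195, adjusted p = 0.00246). With the block and the trend with GC content removed, it was -1.23 (adjusted p = 0.000822).

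Tlr5 also fell in both genotypes with the replicate block. WT libraries named 0p5h had 6.46, 2.48, 4.31, 5.73 and 2.403 CPM of Tlr5 and those named 24h 3.93, 1.62, 2.58, 2.89 and 1.36 CPM. Cacnb3-/- libraries named 0p5h had 5.10, 3.49, 3.20, 3.93 and 4.48 CPM and those named 24h 2.93, 1.70, 0.880, 3.44 and 2.85 CPM. Each culture was lower at 24h, while the groups overlapped in both genotypes. The log2 fold change with the block was -0.77 in WT (SE 0.129, adjusted p = 0.00606) and -0.81 in Cacnb3-/- BMDCs (SE 0.211, adjusted p = 0.0169), below the 2-fold minimum, and the latter was lost without p974s851 (adjusted p = 0.0733). Without the block, the adjusted p was 0.453 and 0.252. The other surface receptor genes are described by their range: Tlr4, which senses lipopolysaccharide, and Tlr6 had log2 fold changes of -0.39 to 0.30 without the block and -0.35 to 0.37 with it over both genotypes, and none reached an adjusted p under 0.05. With the block and the GC trend removed, the value of Tlr4 in Cacnb3-/- BMDCs went from 0.37 to 0.02, and that of Tlr6 from 0.07 to -0.10.

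**Figure D2:**
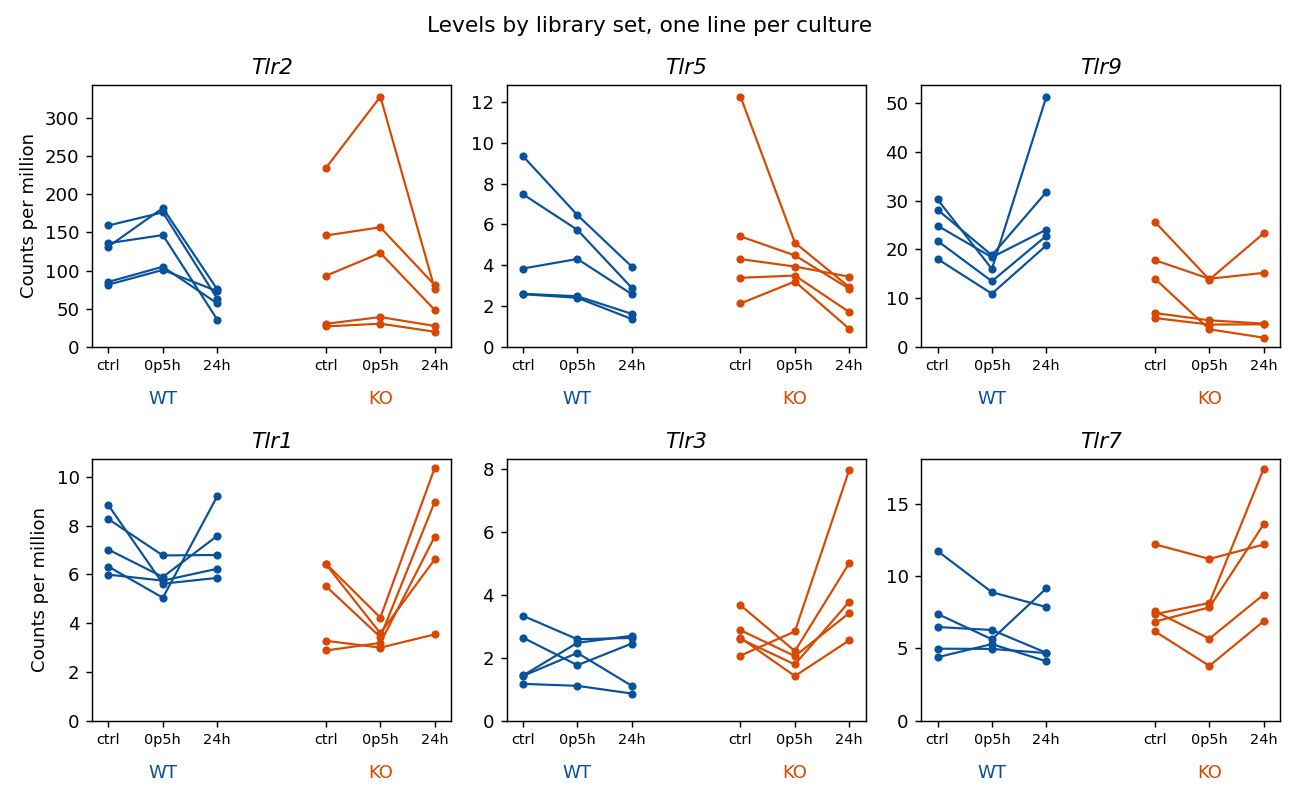
CPM of 6 Toll-like receptor genes in each set (ctrl, 0p5h, 24h), with one line per culture (blue, WT; orange, Cacnb3-/-, marked KO) and a separate linear axis per gene. All 10 Tlr2 lines and all 10 Tlr5 lines fell from 0p5h to 24h, and all 5 WT lines of Tlr9 rose.

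Tlr9 was higher at 24h than at 0p5h in WT libraries. Libraries named 0p5h had 13.5, 18.4, 18.8, 15.99 and 10.9 CPM and those named 24h 22.8, 24.1, 31.8, 51.3 and 20.8 CPM, which did not overlap. The log2 fold change was 0.96 without the block (SE 0.251, adjusted p = 0.12) and 0.91 with it (SE 0.159, adjusted p = 0.00746). Among all genes, 3.69% had groups without overlap in this comparison, and Tlr2 and Tlr9 were the 2 receptor genes among them. In Cacnb3-/- BMDCs, Tlr9 had 3.59, 13.97, 5.44, 4.56 and 13.8 CPM in libraries named 0p5h and 1.86, 15.2, 4.75, 4.62 and 23.3 CPM in libraries named 24h. It was higher in 3 of 5 cultures, with a log2 fold change of 0.11 with the block (95% interval -0.30 to 0.52, adjusted p = 0.665), and 0.38 with the GC trend also removed (adjusted p = 0.102). The lowest value, in p974s843, rested on 14 reads.

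Tlr1, Tlr3 and Tlr7 rose from 0p5h to 24h in Cacnb3-/- BMDCs with the replicate block. Tlr1, which pairs with TLR2, had 4.22, 3.58, 3.43, 2.99 and 3.19 CPM in libraries named 0p5h and 10.4, 6.61, 8.98, 3.54 and 7.55 CPM in those named 24h. Tlr3 had 2.84, 2.21, 1.79, 1.42 and 2.05 CPM and then 7.98, 5.01, 3.79, 2.55 and 3.42 CPM. Tlr7, a sensor of single-stranded RNA, had 8.13, 7.83, 5.66, 3.78 and 11.2 CPM and then 17.4, 13.6, 8.71, 6.88 and 12.2 CPM. Each culture was higher at 24h for each of the 3 genes, p974s843 had the highest value of all 3 at 24h, and the groups overlapped. The log2 fold change with the block was 1.05 for Tlr1 (SE 0.175, adjusted p = 0.00204), 1.09 for Tlr3 (SE 0.176, adjusted p = 0.00165) and 0.69 for Tlr7 (SE 0.153, adjusted p = 0.00779). With Tlr2 and Tlr5, this made 5 of 10 receptor genes at an adjusted p under 0.05, where 28.6% of 12730 genes reached it, and 3 of 10 called at 2-fold (Tlr1, Tlr2 and Tlr3), where 2.88% were. Without the block none was called by edgeR, against 0.66% of all genes. An unadjusted p under 0.05 by edgeR was reached by 5 of the 10, and by 2222 of 12730 genes. DESeq2 without the block called 2 (Tlr1 and Tlr3), and the share of all genes that it called is not given here. The adjusted p by edgeR without the block was 0.078 for Tlr1, 0.129 for Tlr3 and 0.276 for Tlr7.

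Removal of the GC trend of each library, together with the block, changed these rises to 0.91 for Tlr1 (adjusted p = 0.00551), 0.80 for Tlr3 (adjusted p = 0.0063) and 0.40 for Tlr7 (adjusted p = 0.0314), so that Tlr1 and Tlr3 passed the adjusted p but not the 2-fold minimum. The GC content was 44.98% in Tlr1, 41.0% in Tlr3 and 40.9% in Tlr7. In the Cacnb3-/- libraries, DC marker sums ranged from 11570 to 23880 CPM at 0p5h and from 8176 to 16800 CPM at 24h, and with the block 4 of 6 DC markers were lower and 2 higher at an adjusted p under 0.05. Of the macrophage markers, 1 of 7 was higher and 2 were lower. Their part in the differences of the receptor genes was not tested. In WT BMDCs, Tlr1, Tlr3 and Tlr7 had log2 fold changes of 0.29, -0.11 and -0.06 with the block (adjusted p = 0.228, 0.776 and 0.85), with Tlr1 higher in 5 of 5 cultures, and Tlr2, Tlr5 and Tlr9 were the 3 of 10 genes at an adjusted p under 0.05, where 11.3% of all genes reached it. Among the granulocyte markers, 2 of 6 tested were higher in WT at 24h against 0p5h with the block (median log2 fold change without it 0.48), as was 1 of 6 in Cacnb3-/- BMDCs, and their part was not tested.

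**Figure D3:**
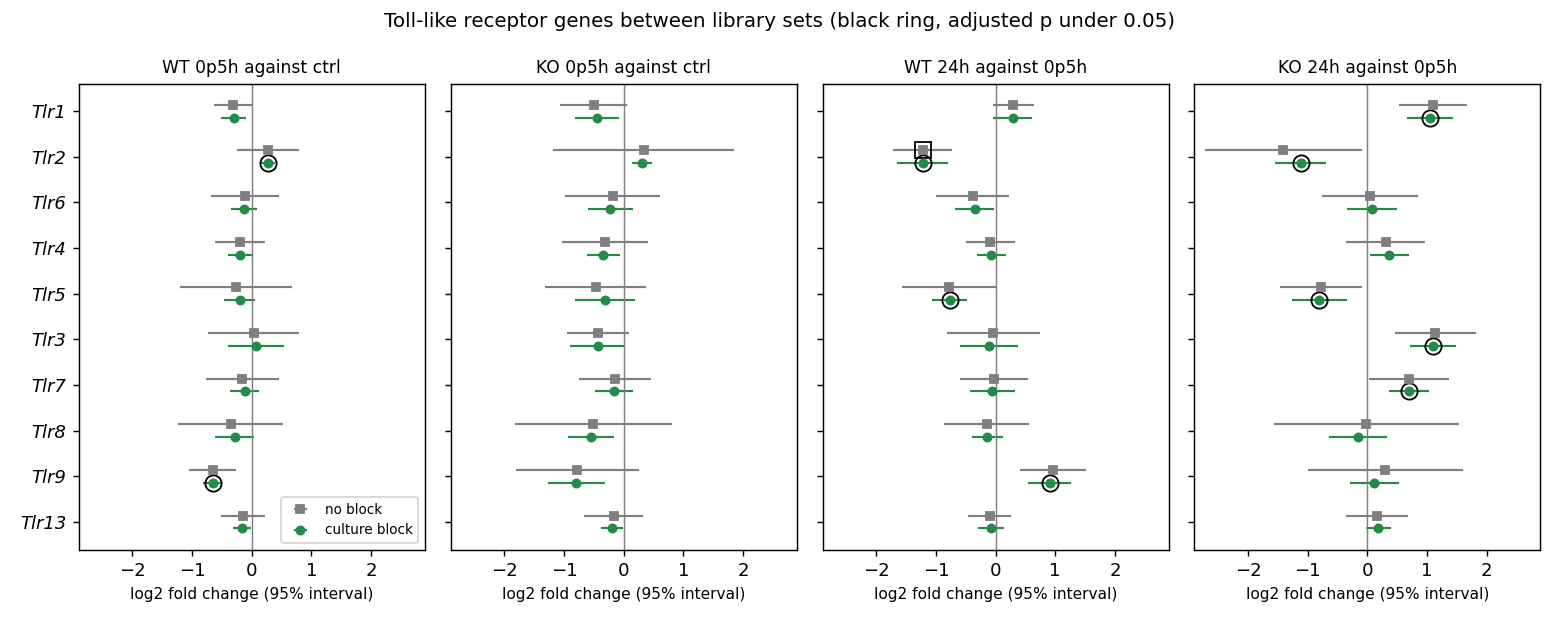
Log2 fold changes of the 10 Toll-like receptor genes between sets in WT and Cacnb3-/- (KO) BMDCs, with 95% intervals, without (grey squares) and with (green circles) the culture as a replicate block. Black rings mark an adjusted p under 0.05: Tlr2 alone without the block, and with it 2 genes in WT 0p5h against ctrl, none in KO 0p5h against ctrl, 3 in WT 24h against 0p5h and 5 in KO 24h against 0p5h.

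Between the libraries named 0p5h and ctrl, no receptor gene was called in either genotype, where 0.176% of 13085 genes were called in WT and 0.29% of 12750 in Cacnb3-/- BMDCs. At an unadjusted p under 0.05, edgeR had 2 of the 10 in WT and 0 in Cacnb3-/- BMDCs. Over all genes it had 594 of 13085 and 509 of 12750. DESeq2 called 0 of the 10 in both. In WT libraries named ctrl, Tlr2 had 85.2, 159, 81.6, 132 and 136 CPM and Tlr9 had 21.8, 24.9, 28.2, 30.3 and 18.04 CPM. Against these, the libraries named 0p5h were higher for Tlr2 and lower for Tlr9 in 5 of 5 cultures, with overlapping groups. With the replicate block, Tlr2 rose by 0.28 on the log2 scale (SE 0.0547, adjusted p = 0.0143) and Tlr9 fell by 0.66 (SE 0.0710, adjusted p = 0.000326), the only 2 of 10 genes at an adjusted p under 0.05 (background 5.96%). The rise of Tlr2 was lost without p974s855 or p974s856 (adjusted p = 0.0704 and 0.0955). Without the block, the adjusted p was 1 for Tlr2 and 0.34 for Tlr9.

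The Cacnb3-/- libraries named ctrl had 93.2, 146, 26.7, 30.2 and 235 CPM of Tlr2 and 13.97, 17.8, 6.93, 5.90 and 25.6 CPM of Tlr9. Again Tlr2 was higher and Tlr9 lower at 0p5h in 5 of 5 cultures, by 0.30 and -0.79 on the log2 scale with the block, but the adjusted p was 0.08 and 0.0964. With the block, 0 of 10 receptor genes passed, against 2.35% of all genes. With the block and the GC trend removed, Tlr2 (adjusted p = 0.0409) and Tlr9 (adjusted p = 0.0418) passed, and the share of all genes in that fit is not given here.

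Between the libraries named 24h and ctrl, none of the 10 genes was called without the block. Of all genes, 0.0152% of 13176 were called in WT and 0% of 12452 in Cacnb3-/- BMDCs. An unadjusted p under 0.05 by edgeR was reached by 1106 and 1343 of these, and by 2 receptor genes in each genotype. DESeq2 called 0 receptor genes. In WT BMDCs, Tlr2 was lower at 24h in 5 of 5 cultures and the groups did not overlap, as in 1.94% of all genes. Its log2 fold change was -0.96 without the block (adjusted p = 0.283, and 0.0284 by DESeq2) and -0.95 with it (SE 0.213, adjusted p = 0.0319), but leaving out p974s846, p974s850, p974s856 or p974s864 raised the latter p to 0.0837, 0.0742, 0.0603 or 0.052. Tlr5 had 9.35, 2.599, 3.84, 7.48 and 2.58 CPM in WT libraries named ctrl and was lower in each culture at 24h, by -0.97 on the log2 scale with the block (SE 0.163, adjusted p = 0.0109, or 0.0721 without p974s846) and an adjusted p of 0.534 without it. These were 2 of 10 genes at an adjusted p under 0.05 with the block, where 6.05% of all genes reached it. Tlr9 in WT BMDCs had a log2 fold change of 0.24 with the block (adjusted p = 0.261) and was higher in 4 of 5 cultures. In Cacnb3-/- BMDCs, the log2 fold change without the block was -1.07 for Tlr2 (adjusted p = 0.449) and -1.24 for Tlr5 (adjusted p = 0.444), both lower in 5 of 5 cultures. Tlr9 had -0.47 there (adjusted p = 0.68) and was higher in 0 of 5 cultures. Tlr1, Tlr3 and Tlr7 had 0.60, 0.70 and 0.54 (adjusted p = 0.446, 0.444 and 0.444). The 3 comparisons of sets share libraries, so their values are not independent of each other.

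The genotypes were then compared within each set, to ask whether the loss of CACNB3 goes with another repertoire. No receptor gene was called in any set, where 0% of 13022 genes were called in ctrl, 0% of 12806 in 0p5h and 0% of 12706 in 24h. At an unadjusted p under 0.05, edgeR had 2161, 2103 and 4877 genes, and 2, 2 and 4 of the 10 receptor genes. In libraries named ctrl, the lowest adjusted p was 0.288, for Tlr9 (log2 fold change of Cacnb3-/- against WT -0.78, 95% interval -1.54 to -0.03). Tlr1 had 5.61, 6.77, 5.74, 5.89 and 5.04 CPM in WT libraries named 0p5h, all above the highest Cacnb3-/- value of 4.22 CPM, and 2.05% of all genes had groups without overlap there. Its log2 fold change was -0.72 (95% interval -1.08 to -0.36), with an adjusted p of 0.251 by edgeR and 0.016 by DESeq2.

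In libraries named 24h, the largest differences between genotypes were those of Tlr3, Tlr7 and Tlr9, 3 nucleic acid sensors. The other nucleic acid sensors, Tlr8 and Tlr13, had log2 fold changes of 0.26 and -0.02 (adjusted p = 0.77 and 0.949). The WT values of Tlr3 were 2.70, 2.45, 1.11, 0.859 and 2.63 CPM and those of Tlr7 4.67, 9.13, 4.10, 4.69 and 7.84 CPM. Against the Cacnb3-/- values given above, the groups of all 3 genes overlapped, with Tlr3 and Tlr7 higher and Tlr9 lower in Cacnb3-/- BMDCs on average. The log2 fold change was 1.21 for Tlr3 (95% interval 0.38 to 2.04, adjusted p = 0.0558), 0.96 for Tlr7 (0.32 to 1.60, adjusted p = 0.053) and -1.54 for Tlr9 (-2.69 to -0.39, adjusted p = 0.0646), while the smallest adjusted p of any gene was 0.0515. By DESeq2 all 3 passed (adjusted p = 0.0157, 0.0159 and 0.0499), and without p974s865 they did in edgeR (adjusted p = 0.0289, 0.0388 and 0.0106). Without WT p974s864, Tlr3 and Tlr7 passed (adjusted p = 0.0454 and 0.0414). The share of all genes that passed in these fits is not given here. With all cultures, 4877 of 12706 genes had an unadjusted p under 0.05 by edgeR, so these passes do not set the receptor genes apart. With the GC trend removed, the values were 0.78, 0.53 and -1.24 (adjusted p = 0.184, 0.253 and 0.136).

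Tlr9 had the highest GC content of the 10 genes at 56.2%, and Tlr3 and Tlr7 were among the 4 with less than 42%. Tlr4, the lowest at 39.6%, had a log2 fold change of 0.44 at 24h as counted and -0.10 with the GC trend removed, and Tlr8, at 40.6%, had 0.26 and -0.12. The libraries named 24h also had fewer counted reads in Cacnb3-/- (median 11986891) than in WT BMDCs (median 19915605), and a higher share of mitochondrial reads, as given above. The DC marker sum was 12050 to 22060 CPM in WT and 8176 to 16800 CPM in Cacnb3-/- libraries named 24h. The sum of 6 markers of mature DCs did not overlap at 24h, with 18970 to 27810 CPM in WT and 10010 to 17320 CPM in Cacnb3-/- libraries (median log2 fold change of the 6 genes -0.79, none called). Tlr7, Tlr8 and Tlr13 lie on the X chromosome, and the donors were of both sexes. The level of Xist, which is transcribed from the inactive X chromosome, and the sequencing lane were each fitted as a covariate. The adjusted p of Tlr3, Tlr7 and Tlr9 was then 0.0712 to 0.0928 with Xist and 0.0891 to 0.104 with the lane. The part of depth, RNA quality and cell types in these differences was not tested. The effects of the deletion and the substrain cannot be told apart.

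**Figure D4:**
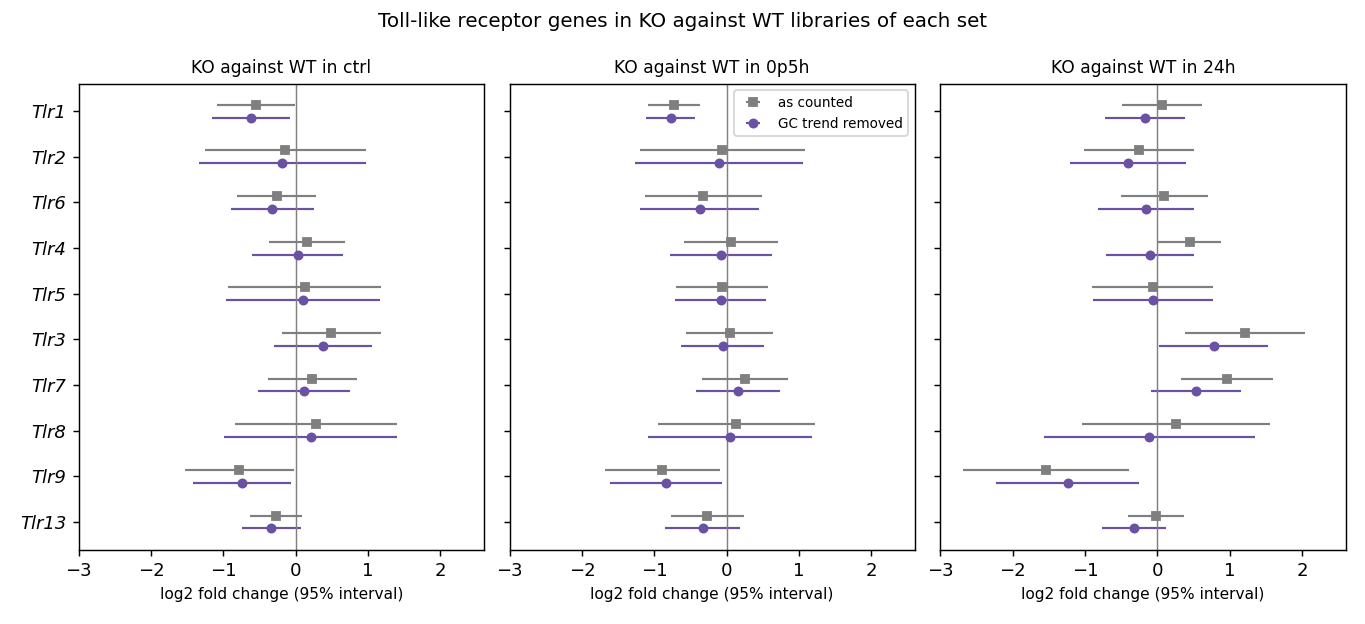
Log2 fold changes of the 10 Toll-like receptor genes in Cacnb3-/- (KO) against WT libraries named ctrl, 0p5h and 24h, with 95% intervals, as counted (grey squares) and after the GC trend of each library was removed (purple circles). In the 24h panel, removal of the trend moved Tlr3 from 1.21 to 0.78, Tlr7 from 0.96 to 0.53 and Tlr9 from -1.54 to -1.24, and no gene had an adjusted p under 0.05.

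Whether a change between sets differed between the genotypes was tested as an interaction. None of the 10 genes was called by edgeR or DESeq2, against 0% of 13465, 13536 and 13424 genes (30, 658 and 789 had an unadjusted p under 0.05 by edgeR for 0p5h against ctrl, 24h against ctrl and 24h against 0p5h). For 24h against 0p5h, the change in Cacnb3-/- exceeded that in WT BMDCs by 0.79 on the log2 scale for Tlr1 (95% interval 0.16 to 1.42) and by 1.17 for Tlr3 (0.16 to 2.19), both with an adjusted p of 0.68. With the replicate block the differences were 0.76 and 1.2, and 0.75 for Tlr7 and -0.78 for Tlr9, with adjusted p-values of 0.108, 0.108, 0.108 and 0.111. With the GC trend removed as well, the 4 differences were 0.57, 0.87, 0.39 and -0.50 (adjusted p = 0.291, 0.203, 0.337 and 0.29). With the block, 0.00745% of genes passed for 24h against 0p5h and 0% for 0p5h against ctrl. For Tlr2 the interaction was 0.09 (95% interval -0.56 to 0.74) with the block, and for Tlr5 -0.04 (-0.57 to 0.49), so differences of these sizes in either direction were not resolved.

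The genes that serve these receptors were described in 6 lists. With the block, 11.3% of all genes in WT and 28.6% in Cacnb3-/- BMDCs reached an adjusted p under 0.05 for 24h against 0p5h, and the counts of the lists below are to be read against these shares. Cd14, which hands lipopolysaccharide and lipopeptides to TLR4 and TLR2, had 1061 ± 439 CPM in WT libraries named 0p5h and 190 ± 103 CPM at 24h (SD, n = 5). Its log2 fold change was -2.48 without the block (adjusted p = 0.0396) and -2.71 with it (adjusted p = 0.000842). In Cacnb3-/- BMDCs it had 990 ± 723 and 167 ± 79.1 CPM (-2.55 without the block, adjusted p = 0.0591, and -2.35 with it, adjusted p = 1.52e-05). From ctrl to 0p5h it rose by 1.2 in WT (adjusted p = 1.01e-05) and 1.41 in Cacnb3-/- BMDCs (adjusted p = 1.38e-05) with the block, while the adjusted p without it was 0.46 and 1. With the block, 1 of 6 tested coreceptor genes (Cd14) was lower in WT, and 1 of 5 was lower (Cd14) and 1 higher (Ly96) in Cacnb3-/- BMDCs at 24h against 0p5h.

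Tnfaip3, whose product A20 restrains NF-kB signalling, had 589 ± 62.5 CPM in WT and 603 ± 65.6 CPM in Cacnb3-/- libraries named 0p5h, and 304 ± 50.3 and 306 ± 48.6 CPM in those named 24h. It fell by 0.95 (adjusted p = 0.00379) and 0.97 (adjusted p = 0.00915) on the log2 scale without the block, short of the 2-fold minimum. Zc3h12a, an RNase that degrades inflammatory transcripts, fell by 0.55 (adjusted p = 0.0319) and 0.80 (adjusted p = 0.0376). Of the 8 restraining genes tested, 4 were lower and 1 higher (Sigirr) in WT with the block, and 3 were lower and 0 higher in Cacnb3-/- BMDCs, where 28.6% of all genes passed.

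Of 7 transcription factors, with the block, 2 were lower (Nfkb1 and Rel) and 1 higher (Rela) in WT, and 1 lower (Nfkb1) and 1 higher (Irf7) in Cacnb3-/- BMDCs, the latter no larger a share than that of all genes. Irf7, which drives interferon genes below the endosomal receptors, had 12.4 ± 8.23 CPM at 0p5h and 32.6 ± 13.9 CPM at 24h in Cacnb3-/- BMDCs (log2 fold change 1.55 with the block, adjusted p = 0.000336, and 1.40 without it, adjusted p = 0.191), while WT libraries named 0p5h ranged from 8.09 to 410 CPM. The genotype difference in the level of Irf7 was not called in any set (log2 fold change -3.81 in ctrl, adjusted p = 0.243). Of 5 adaptor genes, Ticam1, which encodes TRIF, was higher and Ticam2 lower in WT, and Tirap was higher and Ticam2 lower in Cacnb3-/- BMDCs, all with the block. Without it, the adjusted p was 0.745 and 0.469 for the WT pair of genes, against 0.237 and 0.437 for the Cacnb3-/- pair. Of 13 proximal kinases and ligases, 1 was lower in WT (Irak2, by 0.52, adjusted p = 0.00596) and 3 were higher in Cacnb3-/- BMDCs (Peli1, Tab2 and Tab3) with the block, both below the shares of all genes. None of the 11 genes for the transport and cleavage of endosomal receptors passed in either genotype. The median log2 fold change without the block lay between -0.29 (restraining factors) and 0.07 (trafficking) over the 6 lists in WT, and between -0.16 (transcription factors) and 0.18 (proximal kinases) in Cacnb3-/- BMDCs, against 0.01 and 0 over all genes. Between the genotypes at 24h, no listed gene was called, where 0% of 12706 genes were. The smallest adjusted p of any gene, 0.0515, was shared by 8 listed genes, and its share over all genes is not given here. Since 4877 of the 12706 genes had an unadjusted p under 0.05 by edgeR, this value does not set the 8 listed genes apart. Of these, Hsp90b1, the chaperone of these receptors (log2 fold change 0.82), Ctsl, an endosomal protease (0.93), Ly86 (0.93), Tab2 (0.75) and Tab3 (0.72) had higher means in Cacnb3-/- BMDCs, and Ticam1 (-0.73), Sigirr (-0.69) and Zc3h12a (-0.52) lower ones.

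**Figure D5:**
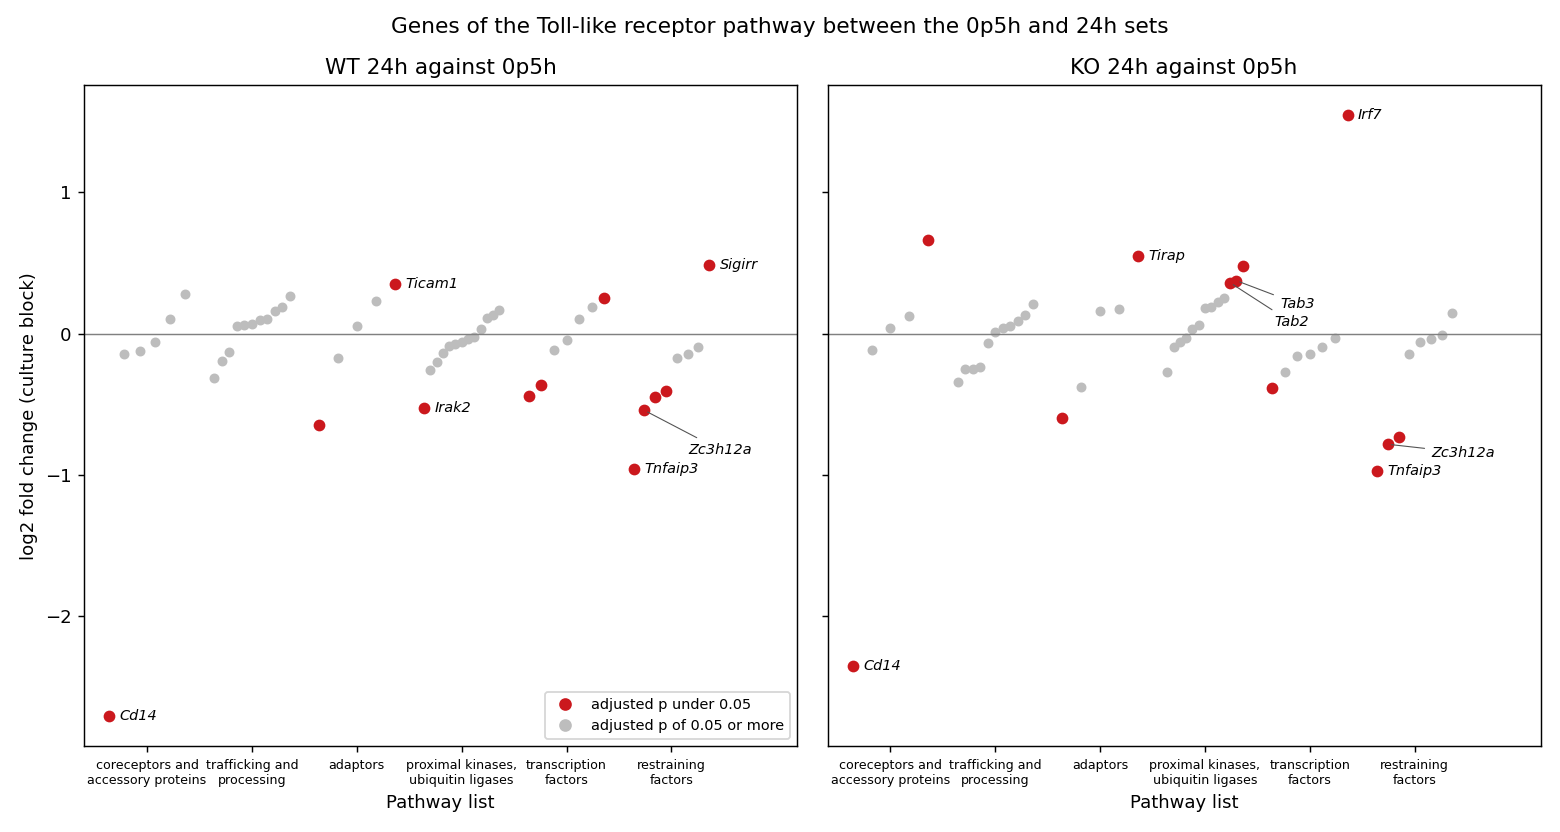
Log2 fold changes with the culture block of the tested genes of 6 Toll-like receptor pathway lists, libraries named 24h against those named 0p5h, in WT and Cacnb3-/- (KO) BMDCs. Points are genes ordered by value within a list, red at an adjusted p under 0.05, and only genes named by the rule are labelled. Cd14 was the lowest point in both panels, at -2.71 and -2.35, and Irf7 the highest, at 1.55, in KO.

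Across the 30 libraries and 13755 genes, the genes whose log2 CPM followed Tlr2 most closely were Lpcat2 (Pearson r = 0.949), Itgax, which encodes the DC marker CD11c (0.946), and Sema4d (0.941). Itgax had a mean of 239 CPM at 0p5h and 144 CPM at 24h in WT, and of 228 and 131 CPM in Cacnb3-/- BMDCs. For Tlr13 the closest were Adam9 (0.922), Naip2 (0.906) and Gvin3 (0.889), and for Tlr9 Zfp319 (0.947), Zfp646 (0.946) and Kat5 (0.945). Among the receptor genes, the highest correlations were those of Tlr6 with Tlr13 (0.813), Tlr4 with Tlr13 (0.784) and Tlr3 with Tlr7 (0.756), and the lowest that of Tlr3 with Tlr9 (-0.489). The 30 points share cultures, sets and base composition effects, so these are descriptions only.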

How the data were processed

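The authors deposited one table of raw read counts per gene for 30 libraries, made per the file header with featureCounts 1.5.1. Reads were assigned to exons of the GRCm38 annotation (Ensembl release 79), read 1 only and without strand. Per the labels, STAR 2.4 and DESeq2 were used. Labels, methods and header differ on sequencer, read pairing and genome build, so coordinates follow the header. Default featureCounts leaves out reads with several alignments.

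Counts were analysed in R 4.3.3 with edgeR 4.0.16 (TMM, filterByExpr, quasi-likelihood test, Benjamini-Hochberg adjustment over all genes tested), on the 10 libraries of each comparison (20 for interactions). CPM used TMM-normalized library sizes, and RPKM divided CPM by the exon length of the table in kilobases. Intervals are 95%. In 29 of 30 pairs, libraries of the same culture number deviated together from their group means over 13755 genes (r over 0.1, median 0.553, against a median of -0.202 for other numbers). Deviations from a group mean cancel out within the group, so the negative median for other numbers follows in part from this centring. The pair that missed 0.1 was Cacnb3-/- p974s843 between ctrl and 24h (0.0715), so the replicate block is given in the report for all comparisons except those of Cacnb3-/- 24h against ctrl. Between genotypes no block could be fitted, since cultures are nested in genotype.

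Alternatives were DESeq2 1.42.0, limma 3.58.1 (voom), DESeq2 size factors, no filter, a joint fit of all 30 libraries, calls by adjusted p alone, removal of each library's GC trend (spline with 5 degrees of freedom, prior count 0.5), the Xist level as a covariate, the replicate block, and each culture left out. The lane as a covariate and the further variants of the blocked fit were added after seeing the data. The fits were tested on simulated data. GC content and the shared 50-base windows came from GENCODE M39 transcripts. The genes, pathway lists and motifs were chosen with earlier results of these data known. Named outside the 10 genes were pathway genes called in any comparison, otherwise the 3 of a list with the smallest adjusted p, and the 3 genes most alike to each of the 3 most abundant members. Ly86, Ly96, Rela, Rel, Nfkb1, Ticam2 and Peli1 were named after their values were seen.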

Additional observations from a re-analysis of the deposited data

Results flagged for a closer look

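In 2 of 60 groups of 5 libraries (10 genes in 6 groups), 1 library stood far from the other 4 relative to the range of its group, and chance alone marks about 1 group in 20. Both were Cacnb3-/- libraries named ctrl of culture p974s865, with 26.26 CPM of Tlr4 against 10.2 to 14.5 CPM in the other 4 cultures and 12.18 CPM of Tlr7 against 6.16 to 7.56 CPM. The same culture had the highest Tlr2 level of all libraries, 328 CPM in its library named 0p5h.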

How the results depend on the processing

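Over 31 results for single receptor genes and 376 alternative settings, 287 kept their direction and side of the threshold, 19 lost the adjusted p under 0.05, 70 gained it and 0 changed sign. Results above the threshold at the outset could only gain it, and many differences were entered both without and with the block. Each of the 31 results passed in some setting on these same libraries, so the lack of sign changes is no independent check. Outside the 31 results, Tlr1, Tlr4, Tlr6 and Tlr8 between the genotypes at 24h, not called in either fit, changed sign with the GC trend removed (Tlr1 from 0.06 to -0.17, Tlr6 from 0.10 to -0.16). The count of called genes for WT 24h against 0p5h went from 1 to 0 with all 30 libraries in one fit and to 0 to 1 with a culture left out. For Cacnb3-/- 24h against 0p5h it went from 0 to 2 by DESeq2, 1 with all 30 libraries, 3 with the replicate block and 1 with the replicate block and the GC trend removed. For Cacnb3-/- against WT at 24h it went from 0 to 2 by DESeq2, 1 without a filter, 2 with all 30 libraries, and 0 to 2 with a culture left out (2 without WT p974s864 or Cacnb3-/- p974s865). The shares of all genes under DESeq2, no filter, all 30 libraries, the GC trend removed or a culture left out are not given. Counts of receptor genes in such fits, here and below, therefore cannot be set against a background. For Cacnb3-/- 24h against ctrl, whose libraries met the pairing check in 4 of 5 cultures, the count went from 0 to 1 with the replicate block. It was also 1 with the block and the GC trend removed. With the block, Tlr2 had -0.83 (adjusted p = 0.0257 by edgeR) and Tlr5 -1.09 (adjusted p = 0.0246). Of 12452 genes, 8.54% reached an adjusted p under 0.05 in this blocked fit and 1.11% were called. With a culture left out of it, 0 to 2 receptor genes had an adjusted p under 0.05. For the interaction of 24h against ctrl, the replicate block left 0 receptor genes, while Irf7 of the pathway lists was called there (1.77, adjusted p = 0.0149 by edgeR, 1 of 16 genes of 13536) and in Cacnb3-/- 24h against ctrl (1.90, adjusted p = 0.00266). In the other blocked fits, the genes at an adjusted p under 0.05 numbered 1 to 2 for WT 0p5h against ctrl and 0 to 2 for WT 24h against ctrl with a culture left out. For Cacnb3-/- 0p5h against ctrl they numbered 2 with the GC trend removed, 2 by DESeq2 and 0 to 3 with a culture left out, and for the interaction of 24h against 0p5h 2 by DESeq2 and 0 to 4 with a culture left out (4 without Cacnb3-/- p974s865). Over all genes, the replicate block moved the calls from 23 to 76, 2 to 122 and 82 to 228 in WT and from 37 to 82, 0 to 138 and 84 to 367 in Cacnb3-/- BMDCs (0p5h against ctrl, 24h against ctrl, 24h against 0p5h), and changed no call of a receptor gene beyond those given here and in the report. The cause was not tested. The order of levels without scaling to length changed the rank of 4, 4 and 4 genes in WT and 6, 4 and 9 in Cacnb3-/- libraries named ctrl, 0p5h and 24h. Tlr3, Tlr5 and the Cacnb3-/- values of Tlr9 are limited by their low counts.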
